A study of Mus musculus with 8 samples.

Results

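The Ifitm genes encode interferon-induced transmembrane proteins. Ifitm1, Ifitm2, Ifitm3 and Ifitm6 were followed here in neutrophils sorted from the spleens of mice with and without the chemokine receptor Cxcr2. They were the rows of the count tables whose Ensembl identifiers carry these symbols in GENCODE M21, 4 of the 55414 genes listed, and they were chosen by symbol, with earlier results of these data known. All 4 passed the filter on low counts. The WT group was 4 FVB mice, and the *Cxcr2-/-* group was 4 mice of the same age (10 weeks) that lack Cxcr2 in every cell of the body and had been backcrossed to FVB. Both were kept in a specific and opportunistic pathogen free facility. Neutrophils were enriched with anti-CD11b beads and sorted as CD45+ CD11b+ Ly6G+ F4/80- cells, and each mouse gave 1 RNAseq library. Because the deletion is present in all tissues, a change in these neutrophils cannot be told apart from one that starts in another cell.

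Ifitm proteins are small membrane proteins that carry a CD225 domain. They insert into the plasma membrane and endosomal membranes and hinder the fusion of enveloped viruses with the cell. Ifitm3 acts mainly in endosomes, Ifitm1 mainly at the cell surface and Ifitm2 is a close relative of Ifitm3, while Ifitm6 is less studied. Many cells raise these genes after interferon, through interferon-stimulated response elements (ISRE) near their starts, and some cells express them without interferon.

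The members lie within 63.1 kb of chromosome 7 (GRCm38). Ifitm2 occupies bases 140954837 to 140955987 on the minus strand, Ifitm1 140967221 to 140969825 on the plus strand, Ifitm3 141009586 to 141010770 on the minus strand and Ifitm6 141015699 to 141017924 on the minus strand. Start regions from RefSeq (GRCm38.p6, 250 bases before to 50 after each annotated start) were searched on both strands for the ISRE core (GAAA, any pair of bases and GAAA again), which 3.43% of 32817 such regions hold. The core was found in the start regions of Ifitm2 and Ifitm3 and not in those of Ifitm1 and Ifitm6. A single RefSeq start was searched for each gene. The starts of the longer GENCODE M21 transcripts of Ifitm1 and Ifitm6 lie further upstream and were not searched. The stretches that hold it are shown first, on the strand of the gene and with the core in capitals. In Ifitm2 it starts 46 bases before the RefSeq start, and in Ifitm3 the cores start at bases 3 and 20 of the RefSeq transcript.
Ifitm2, chr7:140955988-140956017: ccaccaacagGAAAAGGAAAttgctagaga
Ifitm3, chr7:141010714-141010743: gGAAAAGGAAActtctgaGAAACCGAAAct
For contrast, the exon-free part of the Ifitm6 and Ifitm1 start regions is shown. It ends at the first exon of the GENCODE M21 transcript that starts there, and lies in the first intron of longer transcripts of the same gene.
Ifitm6, chr7:141016909-141017142: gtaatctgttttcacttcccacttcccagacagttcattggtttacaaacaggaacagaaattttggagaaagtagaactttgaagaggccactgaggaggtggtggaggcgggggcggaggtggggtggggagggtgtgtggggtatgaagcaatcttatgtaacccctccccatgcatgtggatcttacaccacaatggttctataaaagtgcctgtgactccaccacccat
Ifitm1, chr7:140967826-140968027: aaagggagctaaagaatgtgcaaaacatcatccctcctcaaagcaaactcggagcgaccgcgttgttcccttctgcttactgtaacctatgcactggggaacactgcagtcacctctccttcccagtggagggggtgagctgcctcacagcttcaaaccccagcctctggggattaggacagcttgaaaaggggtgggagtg
The gamma-activated sequence TTCNNNGAA, an element of the gamma interferon response, was in the start regions of Ifitm3 (TTCTGAGAA, from base 14 of the transcript, running into the core at base 20) and Ifitm6 (TTCCTTGAA, 10 bases before the RefSeq start), and in 8.29% of all start regions. A match is only a run of letters, and binding was not measured.

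The libraries held between 34220182 and 46233555 counts on genes. The share of pairs outside genes ran from 31.4 to 41.5% in WT and from 26.7 to 31.9% in *Cxcr2-/-* libraries, and that of pairs not aligned uniquely 8.23 to 11.2% and 10.4 to 13.3%. Their part in the results was not tested. Cxcr2, the targeted gene, had 1956 ± 221 CPM (counts relative to library size) in WT and 17.1 ± 3.46 in *Cxcr2-/-* neutrophils (mean ± SD, n = 4 mice each, as for all values with ± below). CPM values were scaled with the TMM factors of edgeR. The summed CPM of 8 neutrophil markers was 31078 to 44810 in WT and 67647 to 81577 in *Cxcr2-/-* libraries. Of these markers S100a8 and S100a9 had the highest levels, so they weigh most in the sum. At an edgeR adjusted p under 0.05, 6 markers were higher, Csf3r was lower and Itgam did not pass. Csf3r went from 6960 ± 462 to 3334 ± 147 CPM (log2 −1.06). The sum is therefore not a measure of purity. Every other marker list outside the neutrophil line summed to at most 1149.5 CPM in any library. Some *Cxcr2-/-* libraries stood apart from the others of their group. Mice 3 and 4 had 38.4 and 57.8 CPM of the monocyte gene F13a1, against 8.11 and 8.77 in mice 1 and 2, and 81.2 and 146 CPM of the primary granule gene Mpo, against 19.1 and 20.2. Mouse 1 had more of several interferon-stimulated genes, such as Oas2 at 139 CPM against 60.4 to 73.4 in mice 2 to 4. In bulk samples fewer cells of a type and less RNA per cell cannot be told apart.

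*Cxcr2-/-* neutrophils had more Ifitm6, Ifitm3 and Ifitm1 mRNA than WT neutrophils, and the difference was not shown for Ifitm2. Ifitm6 was 4.24-fold, Ifitm3 3.40-fold and Ifitm1 1.75-fold higher, and Ifitm2 was 1.27-fold higher with overlapping groups. The quasi-likelihood test of edgeR was used, and calls needed an adjusted p under 0.05 together with a 1.5-fold change. On this rule 3 of the 4 members were called higher, against 15.7% of the 16778 genes tested. The same 3 had no overlap between the groups, which held in the same direction for 22.5% of genes (and in the opposite one for 19.1%). Over both directions 44.7% of genes passed at an adjusted p under 0.05.

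Ifitm6 changed most. Its CPM was 509.9, 375.4, 516.7 and 473.9 in WT mice 1 to 4 and 1894, 2011, 2259 and 1796 in *Cxcr2-/-* mice 1 to 4. The lowest *Cxcr2-/-* library was thus far above the highest WT library. The log2 fold change was 2.09 (SE 0.13, edgeR adjusted p = 2.37e-07), with a 95% interval for the fold from 3.55 to 5.07. The 95% intervals here and below were computed from the SE with a normal distribution. They are somewhat narrower than the edgeR test itself would give. Of all genes tested, 0.864% rose by more, and of the 4222 genes with a mean log2 CPM of at least 5, 0.474% did.

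Ifitm3, the endosomal member with the best known antiviral role, had 145.8, 119.1, 144.2 and 133.1 CPM in the WT mice and 493.8, 387.9, 555.5 and 404.0 CPM in the *Cxcr2-/-* mice. The groups did not overlap. Its log2 fold change was 1.76 (SE 0.13, edgeR adjusted p = 6.65e-07), and the 95% interval of the fold ran from 2.85 to 4.05. A larger rise was seen in 1.79% of genes tested.

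For Ifitm1, which acts mainly at the cell surface, the WT mice had 548.2, 331.8, 365.8 and 446.1 CPM and the *Cxcr2-/-* mice 636.9, 605.7, 931.9 and 784.4 CPM. The highest WT library lay just under the lowest *Cxcr2-/-* library. The log2 fold change was 0.81 (SE 0.17, edgeR adjusted p = 0.00227), and the 95% interval of the fold was 1.38 to 2.21. It was a smaller change, exceeded by 12% of genes. Without *Cxcr2-/-* mice 3 and 4, an alternative chosen after seeing the data, its log2 fold change was 0.54 (edgeR adjusted p = 0.0267), which passed but was under 1.5-fold.

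Ifitm2 had 155.7, 126.3, 153.0 and 169.0 CPM in the WT mice and 171.9, 152.2, 286.8 and 157.6 CPM in the *Cxcr2-/-* mice. Only *Cxcr2-/-* mouse 3 stood well above the WT range. The log2 difference was 0.35 (SE 0.18, edgeR adjusted p = 0.142) with a 95% interval of the fold from 0.993 to 1.63, which includes no change. Without *Cxcr2-/-* mouse 3 the log2 difference was 0.08 (edgeR adjusted p = 0.634).

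**Figure D1:**
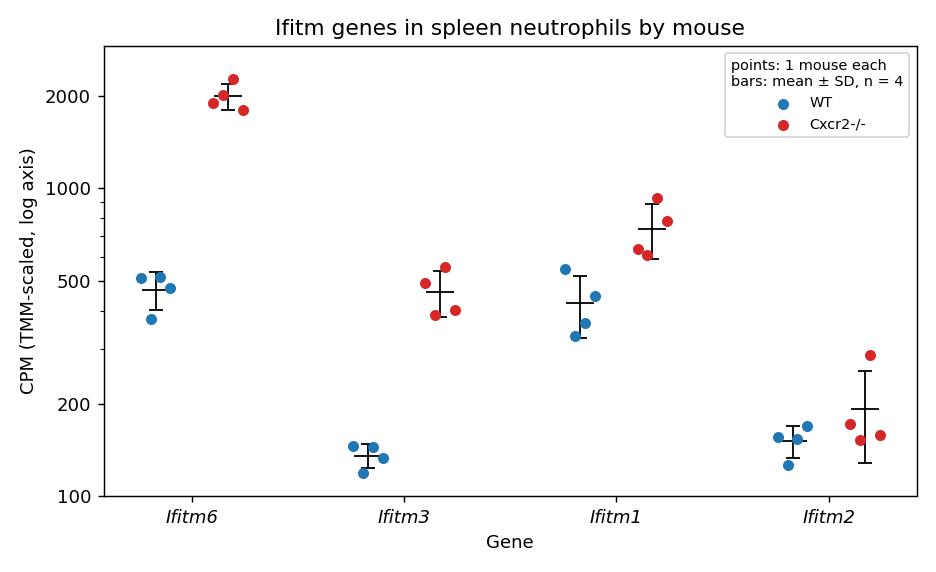
CPM of each Ifitm gene (vertical axis, log scale) in the 4 WT (blue) and 4 *Cxcr2-/-* (red) mice, 1 point a mouse, with bars for the mean ± SD. The groups are apart for Ifitm6, Ifitm3 and Ifitm1 and overlap for Ifitm2, where *Cxcr2-/-* mouse 3 has 286.8 CPM.

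The Ifitm2 value may rest on part of the gene. Of its 655 exon bases, 268 are also exon of the readthrough transcript Gm45717 on the same strand. HTSeq in its default mode assigns no read pair that meets both, and the mode used is not given in the sources used here. All 495 exon bases of Gm45717 are shared with Ifitm2 or Ifitm5. Its 0 counts in all 8 libraries thus do not show whether it is expressed. Ifitm1, Ifitm3 and Ifitm6 share no exon base with another gene on their strand. Between members, Ifitm2 and Ifitm3 have the longest identical run, 69 bases, Ifitm1 and Ifitm3 share one of 64 bases, and no stretch of 120 bases, the shortest read kept after trimming, is common to any pair. Of the 120-base windows of Ifitm2, 28.7% also occur in Gm45717 or in Gm8865, a processed pseudogene. The gene identifiers carry later version numbers than GENCODE M21 for 52096 of 55414 genes, so the exons counted may differ from those given here.

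The order of the members was compared per length, as CPM per kb of merged exons (FPKM). In every WT library Ifitm6 had the highest level (518 ± 72.0), followed by Ifitm1 (387 ± 88.0), Ifitm2 (231 ± 27.4) and Ifitm3 (200 ± 18.2). The ranges of Ifitm6 and Ifitm1 over mice overlapped, as did those of Ifitm2 and Ifitm3. On the 387 bases of Ifitm2 not shared with Gm45717 its level would be 390 ± 46.3 FPKM, next to Ifitm1. In *Cxcr2-/-* libraries Ifitm6 was again first (2199 ± 220), Ifitm3 (679 ± 116) and Ifitm1 (676 ± 137) had overlapping ranges, and Ifitm2 was last (293 ± 97.2, or 496 ± 165 on its unshared bases). Among 21927 protein-coding genes ranked by FPKM, Ifitm6 moved from place 33 to 43 in the WT libraries to place 11 to 13 in the *Cxcr2-/-* libraries, and Ifitm3 from 160 to 189 to 27 to 40.

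The makeup of the family shifted with the genotype. Summed over the 4 genes, CPM was 1178 ± 169 in WT and 3382 ± 435 in *Cxcr2-/-* neutrophils. Ifitm6 took 39.9% of these counts in WT and 59.0% in *Cxcr2-/-* mice. The share of Ifitm1 was 35.7% and 21.8%, that of Ifitm2 12.9% and 5.58%, and that of Ifitm3 11.6% and 13.6%. Ratios within a library, which do not depend on how libraries are scaled, were compared for all 6 pairs of members with a two-sided exact permutation test. Ifitm6 over Ifitm2 differed most, by 1.79 on the log2 scale, then Ifitm3 over Ifitm2 (1.45), Ifitm6 over Ifitm1 (1.28), Ifitm3 over Ifitm1 (0.94) and Ifitm6 over Ifitm3 (0.34). Each of these 5 gave p = 0.0286 by the exact test, the smallest it can give with 4 mice against 4, and 0.0343 after Benjamini-Hochberg adjustment over the 6 pairs. Ifitm1 over Ifitm2 differed by 0.51 with overlapping groups (exact p = 0.0571, adjusted 0.0571). The members thus changed by unequal amounts, Ifitm6 more than Ifitm3, and both more than Ifitm1 and Ifitm2.

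**Figure D2:**
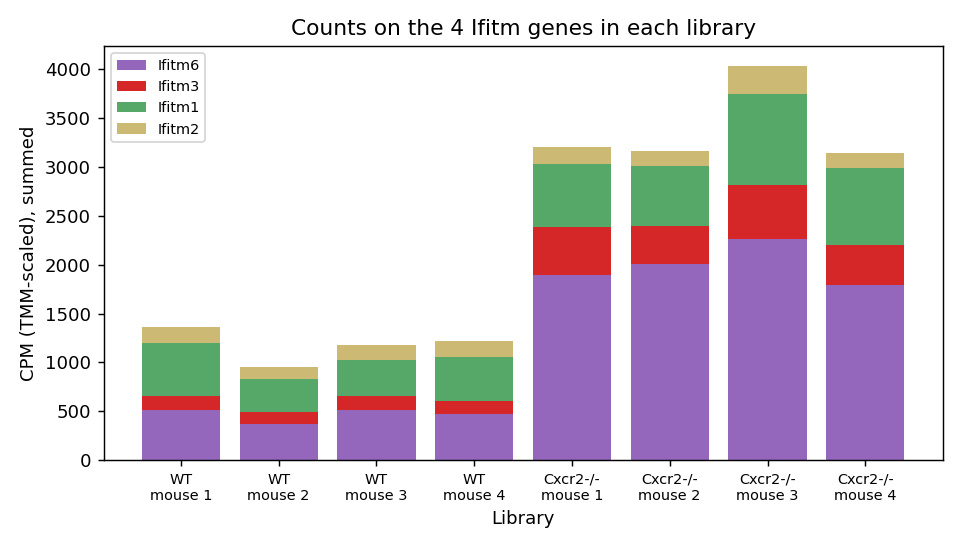
Summed CPM of the 4 Ifitm genes (vertical axis) in each library (horizontal axis), with 1 colour a gene. The sums are 952.6 to 1360 in WT and 3142 to 4033 in *Cxcr2-/-* mice, and Ifitm6 makes up most of each *Cxcr2-/-* bar.

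Within a genotype the members varied together. WT mouse 2 had the lowest and *Cxcr2-/-* mouse 3 the highest value of its group for each of the 4 genes. After the group means were subtracted, the correlation of log2 CPM over the 8 libraries was between 0.57 (Ifitm1 with Ifitm6) and 0.84 (Ifitm2 with Ifitm3), a description of points that share library preparation and scaling. WT mouse 2 also had the lowest neutrophil marker sum of its group (31078 CPM) and the highest dendritic cell marker sum (352 CPM, of which H2-Aa was 324). *Cxcr2-/-* mouse 3 had the highest monocyte and macrophage marker sum (1149.5 CPM). Mouse 4 of that group had nearly the same sum (1128.8 CPM) with the lowest Ifitm6 of the group (1796 CPM). Its Ifitm1 (784.4 CPM) was above that of mice 1 and 2. The part of these sums in the member values was not tested.

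Markers of neutrophil precursors moved with the same contrast. All 9 of the list rose in *Cxcr2-/-* libraries, with a median log2 fold change of 2.75. Their summed CPM was 19421 to 23500 in WT and 44579 to 63603 in *Cxcr2-/-* libraries, and none was at 0 in all libraries. Ltf, Ngp, Camp and Chil3 had the highest levels in both groups, so they carry the sum. It did not follow Mpo and Elane. *Cxcr2-/-* mouse 4 had the lowest sum of its group (44579 CPM) with the highest Mpo (146 CPM) and Elane (93.2 CPM). Mouse 1 had the highest sum (63603 CPM) with the lowest Mpo (19.1 CPM) and Elane (12.0 CPM). The primary granule genes Mpo (2.81 and 66.5 CPM in WT and *Cxcr2-/-*) and Elane (1.22 and 43.8 CPM) were at low levels, while the secondary granule gene Ltf went from 8700 to 21059 CPM. The part of precursors in the Ifitm6, Ifitm3 and Ifitm1 changes was not tested. Monocyte and macrophage markers summed to 728 to 854 CPM in WT and 883 to 1149.5 CPM in *Cxcr2-/-* libraries, 4 of 11 higher (Ly6c2, Ccr2, F13a1 and Fn1) and 2 lower (Csf1r and Adgre1). Ly6c2 (239 ± 35.1 to 627 ± 38.4 CPM) and Csf1r (442 ± 41.1 to 232 ± 42.1 CPM) weigh most in this sum and moved in opposite directions. The higher sum thus rests on Ly6c2 and is not a measure of monocyte content. Ccr2, F13a1 and Fn1 overlapped between the groups. Without *Cxcr2-/-* mice 3 and 4 none of these 3 passed (edgeR adjusted p = 0.657, 0.239 and 0.303). Those mice had been singled out by their high F13a1 and Mpo, and were also highest in Ccr2 and Fn1. The loss thus followed from the choice and is no independent test. Ly6c2 (log2 1.43, against 1.39 with all mice), Mpo (2.80, against 4.58) and Elane (3.42, against 5.15) were still higher without them. Without the same mice the log2 fold change was 2.04 for Ifitm6, 1.68 for Ifitm3 and 0.09 for Ifitm2. Without *Cxcr2-/-* mouse 4 alone the log2 fold change was 3.84 for Mpo, 4.46 for Elane and 1.53 for F13a1, and without WT mouse 3 it was 5.29 for Mpo. A further fit used the mean log2 CPM of the 11 monocyte and macrophage genes as a covariate. In that fit the log2 fold change was 2.10 for Ifitm6, 1.76 for Ifitm3 and 0.77 for Ifitm1. The list mixes genes that rose with genes that fell (median log2 fold change 0.02). Its mean need not follow monocyte content, so these values cannot be read as adjusted for monocytes. Dendritic cell markers summed to at most 352 CPM and B cell markers to at most 153 CPM, and both were lower in *Cxcr2-/-* libraries by their medians.

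The genes around the members changed in both directions. Within 50 kb, Pgghg, which encodes a glucosidase of collagen sugars, fell from 129 to 72.5 CPM (log2 −0.84, edgeR adjusted p = 3.15e-05). Ifitm5, the member of the family known for bone, fell from 6.81 to 3.09 CPM (log2 −1.13, edgeR adjusted p = 0.000800). Ifitm5 also shares 227 exon bases with Gm45717. The inflammasome sensor Nlrp6 passed as lower at under 1 CPM in both groups, but not when WT mouse 1 or 3 or *Cxcr2-/-* mouse 1, 2 or 4 was left out. Gm7514, annotated as a processed pseudogene between Ifitm1 and Ifitm3, rose by 0.53 on the log2 scale (7.22 to 10.4 CPM), and B4galnt4, a glycosyltransferase, passed as higher on 64 counts in all 8 libraries together (log2 2.79, and 3.38 without WT mouse 3). The remaining 4 annotated genes in this stretch were below the filter, among them Gm45717, which has no exon base of its own. Read against the background, 23.7% of all genes passed as higher and 21% as lower at an adjusted p under 0.05.

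**Figure D3:**
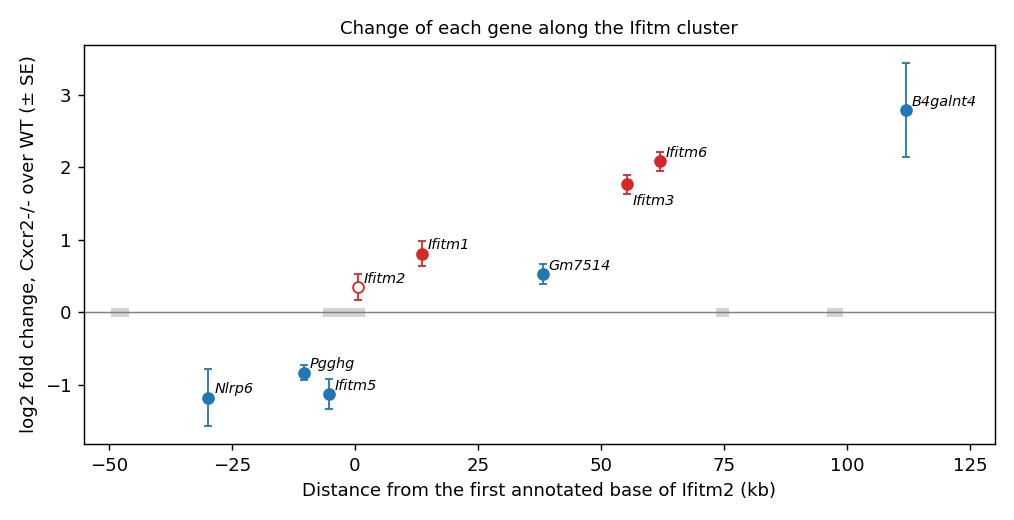
Log2 fold change of *Cxcr2-/-* over WT (vertical axis, ± SE) of each tested gene against its distance from the first base of Ifitm2 (horizontal axis, kb). Members are red and other genes blue, and filled points passed while open ones did not. Grey marks at 0 are genes with too few counts to test. Ifitm6 and Ifitm3 lie side by side at 2.09 and 1.76, and Ifitm5 and Pgghg, on the other side of Ifitm2, are below 0.

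Other interferon-stimulated genes changed in both directions. Of 48 listed, 45 were tested, and 11 (24.4%) passed as higher and 7 (15.6%) as lower, with a median log2 fold change of 0.13 against 0.013 over all genes tested. Over all genes 23.7% passed as higher and 21% as lower, so the share higher is near the background. Without *Cxcr2-/-* mouse 1 the count of lower genes was 12. The genes with the largest rises at a mean log2 CPM of at least 3 were Oas2, Oas3 and Oas1a, synthases of the 2-5A signal that activates RNase L. Oas2 went from 27.4 ± 5.31 to 85.6 ± 36.1 CPM (log2 1.65, highest in *Cxcr2-/-* mouse 1), Oas1a from 7.45 ± 1.39 to 22.6 ± 7.00 CPM (log2 1.60) and Oas3 from 74.4 ± 15.3 to 189 ± 90.3 CPM (log2 1.35). *Cxcr2-/-* mouse 1 had 321 CPM of Oas3 and the other 3 mice 120 to 170 CPM. At the same mean level the largest falls were those of Rsad2, the antiviral radical enzyme viperin (19.4 ± 4.73 to 5.03 ± 1.42 CPM, log2 −1.95), Isg15, a ubiquitin-like modifier (13.3 ± 1.21 to 7.65 ± 2.80 CPM, log2 −0.79), and Ddx60, a helicase (log2 −0.54). A rise larger than that of Ifitm6 was seen in 1 of the 45, Oas1g (log2 2.80, at 0.421 and 2.95 CPM), and larger than that of Ifitm3 in Oas1g and Zbp1 (log2 2.01, and 1.26 without *Cxcr2-/-* mouse 1). These last 2 were singled out after their values were seen.

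Of 18 receptors, transducers and inhibitors of interferon signalling tested, 3 (16.7%) passed as higher and 7 (38.9%) as lower, against 23.7% and 21% of all genes, and 8 did not pass. The median was −0.15. Higher were Stat2 (log2 0.60), a transducer, and the receptor chains Ifnlr1 (0.46) and Ifnar2 (0.36). Named after their values were seen, the receptor chain Ifnar1 (log2 −0.41), the kinases Jak1 (−0.41) and Jak2 (−0.45) and Irf2 (−0.49) were lower. Ifngr1, Ifngr2 and Il10rb, other receptor chains named in the same way, did not pass. Irf1, a target and driver of the gamma interferon response, went from 331 ± 49.9 to 195 ± 78.8 CPM (log2 −0.76, edgeR adjusted p = 0.0133). *Cxcr2-/-* mouse 1 had 311 CPM of it, inside the WT range, and mice 2 to 4 had 134 to 176 CPM. Without *Cxcr2-/-* mice 3 and 4 the adjusted p of Irf1 by edgeR was 0.0656. The feedback inhibitors Socs1 and Socs3 were lower by log2 −0.55 and −0.50. Stat2 did not pass without WT mouse 1 or 3, Ifnlr1 without WT mouse 2 or 3 or *Cxcr2-/-* mouse 1 or 2, and Socs1 without WT mouse 1 or 2 or *Cxcr2-/-* mouse 2 or 3. Without WT mouse 3 the number passing as higher was 1.

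Genes whose products modify or assist Ifitm proteins were tested as a list of 9, of which 4 (44.4%) passed as higher and 2 (22.2%) as lower, against 23.7% and 21% of all genes, with a median of 0.28. Zmpste24, a membrane protease that acts together with Ifitm proteins, rose from 142 ± 4.44 to 287 ± 61.4 CPM (log2 1.02, edgeR adjusted p = 6.71e-05). The AAA ATPase Vcp rose by 0.62 and Nedd4, a ligase that ubiquitinates Ifitm3, by 0.43 on the log2 scale. Zdhhc20, a palmitoyltransferase that anchors Ifitm3 in membranes, fell from 121 ± 8.61 to 82.1 ± 12.0 CPM (log2 −0.56, edgeR adjusted p = 0.00129), and the methyltransferase Setd7 by −0.28. Setd7 did not pass, and the number lower was 1, when WT mouse 1, WT mouse 4, *Cxcr2-/-* mouse 3 or *Cxcr2-/-* mouse 4 was left out.

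Of 9 relatives with the CD225 domain, 3 could be tested. Ifitm5 and Tmem91 passed as lower and Ifitm10 as higher. Tmem91 went from 2.93 to 1.37 CPM and Ifitm10 from 4.67 to 6.33 CPM (edgeR adjusted p = 0.0464). Tmem91 and Ifitm10 were named after their values were seen, and Ifitm10 no longer passed when WT mouse 1, 2 or 4 or *Cxcr2-/-* mouse 1, 2 or 3 was left out. Of 9 other factors tested that act on virus entry or release, 2 (22.2%) passed as higher and 2 (22.2%) as lower, near the 23.7% and 21% of all genes. Tspo, a mitochondrial membrane protein, rose from 83.6 ± 23.0 to 331 ± 26.8 CPM (log2 1.99, edgeR adjusted p = 2.19e-06), and the ligase March2 by 0.52. Serinc5 and Serinc3, which lower the infectivity of retroviruses, were lower by −0.61 and −0.26, and Serinc3 did not pass when WT mouse 1, 3 or 4 or *Cxcr2-/-* mouse 1, 2 or 3 was left out.

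**Figure D4:**
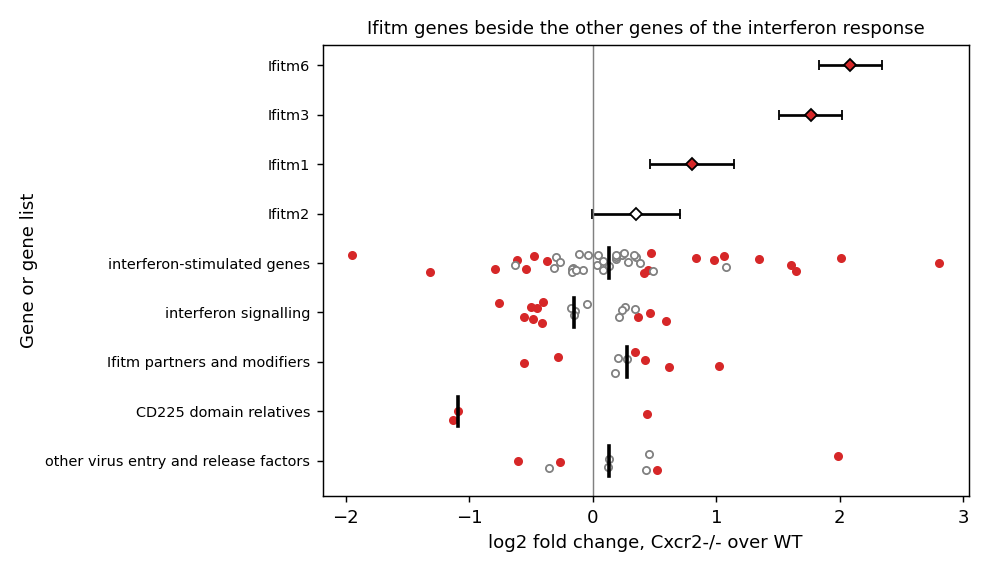
Log2 fold change of *Cxcr2-/-* over WT (horizontal axis) of the 4 Ifitm genes with 95% intervals (top rows) and of each tested gene of 5 lists (lower rows, spread for display), with a black bar at each list's median. Red points passed at an adjusted p under 0.05 and white ones did not. Interferon-stimulated genes lie on both sides of 0, with a median of 0.13.

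The genes whose log2 CPM followed each member most closely over the 8 libraries were searched among 4096 protein-coding genes, and are given as a description. For Ifitm6 they were Pgm2 (Pearson's r 0.998, and 0.92 after the group means were subtracted), Psma2 (0.994 and 0.82) and Apmap (0.994 and 0.72). For Ifitm3 they were Hist1h1e (0.997 and 0.92), Cenpb (0.995 and 0.86) and Hist1h2bm (0.995 and 0.86). The closest to Ifitm1 were Ube2h (0.971 and 0.97), Akr1a1 (0.968 and 0.89) and Wfdc17 (0.965 and 0.92), and the closest to Ifitm2 were Hist1h2bc (0.947 and 0.95), Dazap1 (0.862 and 0.88) and Rps13 (0.859 and 0.87). The first value of each pair also holds the difference between the genotypes, and the libraries share preparation and scaling.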

How the data were processed

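Per the labels and the methods of the study, ribosomal RNA was depleted, strand-specific paired reads were trimmed, aligned to mm10 with STAR and counted on genes with HTSeq, and the authors deposited whole-number counts per gene without normalization. The counting mode and strand setting are not given in the sources used here. Symbols, positions and exon lengths were from GENCODE M21 (GRCm38), which matched 52133 of 55414 identifiers. Counts were fitted for all 16778 genes that passed filterByExpr with edgeR 4.0.16 in R 4.3.3 (TMM, quasi-likelihood test, Benjamini-Hochberg adjustment). Passing meant an adjusted p under 0.05, and a call also a 1.5-fold change, the thresholds of the study's methods. The biological coefficient of variation was 0.202. DESeq2 1.42.0 was an alternative, beside other scalings, filters, a monocyte marker covariate, the replicate number as a block, and each mouse left out. Groups and replicate numbers came from the labels. Nothing beyond the separate mice says how preparation was batched. Ratios between members were compared with scipy 1.17.1, and the fits were tested on simulated data. Members and gene lists were chosen with earlier results of these data known. Named from each list were the 3 largest changes in each direction with a mean log2 CPM of at least 3. Also named were the members, genes within 50 kb, markers, Cxcr2, the 3 closest genes by correlation and genes marked as named after their values were seen.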

Additional observations from a re-analysis of the deposited data

Results flagged for a closer look

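In a group of 4 mice a value was set apart when its gap to the nearest other was most of the group's range, which chance gives in about 1 of 20 groups. This held in 3 of the 22 groups examined. Ifitm2 in *Cxcr2-/-* mouse 3 was 287 CPM, above the other 3 mice of its genotype. The summed CPM of the 4 Ifitm genes was 4033 in the same mouse. The log2 ratio of Ifitm3 over Ifitm2 in WT mouse 4 was −0.345, the lowest of its group.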

How the results depend on the processing

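Of 324 values recomputed under the alternatives, 297 were rated the same, 27 counts moved by more than 1.5 times, and none reversed. Tested values were rated by direction and side of p 0.05, whatever the fold, and counts by 1.5 times. The summed level and the ratios with a mouse left out were rated by a shift under the pooled SD of the groups. Log2 fold changes with 1 mouse left out ranged from 1.97 to 2.13 for Ifitm6, 1.65 to 1.84 for Ifitm3, 0.66 to 0.96 for Ifitm1 and 0.08 to 0.45 for Ifitm2, and the adjusted p of Ifitm1 was at most 0.0135. Over the other settings they were 1.97 to 2.10, 1.64 to 1.76, 0.54 to 0.81 and 0.09 to 0.33 in the same order, the last 2 lows being those without *Cxcr2-/-* mice 3 and 4, chosen after seeing the data. Upper-quartile scaling moved the median of all genes by −0.12 and gave 1975 genes called higher and 3227 lower, against 2628 and 2628. With it 1 interferon signalling gene passed as higher. The count of CD225 relatives passing as higher was 0 with RLE, upper-quartile or total-count scaling, without a filter, with at least 10 counts in every library and with the replicate block. That of entry and release factors passing as lower was 1 without a filter and with the replicate block. With 1 mouse left out, the counts ranged from 6 to 12 (interferon-stimulated, lower), 1 to 4 (signalling, higher), 1 to 2 (partners, lower), 0 to 1 (relatives, higher) and 1 to 2 (entry and release, lower). The cause was not tested.

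Same-numbered WT and *Cxcr2-/-* mice are different animals, their deviations correlated at 0.150, −0.187, 0.245 and −0.308, and 2 of the 4 WT libraries correlated best with their own number. With the number as a block, the log2 fold change was 2.09 for Ifitm6, 1.75 for Ifitm3, 0.81 for Ifitm1 and 0.30 for Ifitm2 (edgeR adjusted p = 4.78e-06, 3.96e-06, 0.00341 and 0.134), and 2470 genes were called higher and 2518 lower.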
